A study of Mus musculus with 18 samples.

Results

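Tumours of 18 male C57BL/6 mice were profiled by RNA sequencing, and the 10 described here were picked for how strongly they expressed interferon-stimulated genes. An interferon score was taken for 15 of the 18 tumours as the mean log2(RPKM + 1) of Ifit1, Ifit3, Rsad2, Isg15 and Oasl2, where RPKM is the read count scaled by gene length and library size. The sides were selected on these measured values: the 5 tumours of highest score (interferon-high) were set against the 5 of lowest score (interferon-low) across all other genes. The interferon-high tumours were het 1, het 5, hom 5, hom 1 and het 2, the interferon-low tumours were het 6, hom 2, hom 6, wt 4 and hom 3, and 5 tumours lay between them. Wt 1, wt 2 and het 4 stood outside the ranking.

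All mice, wild-type controls included, carried the Min allele of Apc (ApcMin/+), a truncating mutation that gives adenomas through unchecked Wnt signalling. They differed in Macrod2, which encodes an enzyme that removes ADP-ribose from proteins, as wt (ApcMin/+/Macrod2+/+), het (ApcMin/+/Macrod2-/+) or hom (ApcMin/+/Macrod2-/-), and the study compared tumours by this genotype. No treatment is recorded, age is not given in the sources used here, and a tumour is named by its genotype and the mouse number in its title. The source labels place the tumours in the large intestine, apart from het 4 in the small intestine. Since the titles give 1 tumour per numbered mouse, the p-values below measure the spread between single tumours. In bulk tissue, more cells of a type and more RNA per cell cannot be told apart.

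Interferons are secreted antiviral proteins. Type I and type III interferons signal through their receptors, the kinases Jak1 and Tyk2 and a complex of factors that includes Stat2 and Irf9 and binds interferon-stimulated response elements (ISRE). Type II interferon (interferon gamma, mainly from T cells and NK cells) signals through Jak1 and Jak2 to gamma-activated sites (GAS) in DNA, and it is known for inducing Cxcl9, guanylate-binding proteins and MHC class II.

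The 5 genes of the score are classical interferon-stimulated genes. Ifit1 and Ifit3 encode proteins that act together on foreign RNA, Rsad2 encodes viperin, Isg15 encodes a ubiquitin-like modifier and Oasl2 encodes a relative of the oligoadenylate synthetases. Windows of 250 bases before each gene start listed by RefSeq were searched on both strands for the ISRE core, GAAA and GAAA parted by 2 bases of any kind (TTTC and TTTC on the other strand), and for the GAS core, TTC and GAA parted by 3 bases, which reads the same on both. A gene with several starts was counted if any of its windows held the core. Of the 5 score genes, 4 held the ISRE core and 0 held the GAS core. Of the 10469 tested genes with a window, 3.08% held the ISRE core and 7.36% the GAS core. The stretches that hold the matches are printed below because these genes set the score, followed by that of Irgm2, which had the smallest p among interferon-list genes with a window. Sequences are from RefSeq on GRCm38.p6, 5′ to 3′ on the strand of the gene, with the ISRE cores in capitals.
Ifit1 (chr19:34640773-34640825, + strand): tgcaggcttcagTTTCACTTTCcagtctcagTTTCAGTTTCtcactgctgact
Ifit3 (chr19:34583361-34583428, + strand): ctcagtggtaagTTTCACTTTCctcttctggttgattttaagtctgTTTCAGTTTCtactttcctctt
Rsad2 (chr12:26456551-26456584, - strand): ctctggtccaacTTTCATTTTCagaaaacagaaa
Isg15 (chr4:156200863-156200908, - strand): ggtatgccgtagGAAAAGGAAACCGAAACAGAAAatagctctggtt
Irgm2 (chr11:58214901-58214934, + strand): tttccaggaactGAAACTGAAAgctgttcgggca
Ifit1 and Ifit3 each held 2 ISRE cores, Rsad2 held 1, and the 3 cores of Isg15 overlap in 1 stretch. Irgm2 held 1 ISRE core and 1 GAS core, and its RefSeq start lies inside the longer span that GENCODE gives for the gene. The bases after the RefSeq start began a GENCODE transcript in 37.2% of the 32851 windows of the promoter table. In Oasl2, and in Egfl6, which is described below, neither set of letters is in the window. An ISRE core was found in 12 of 18 interferon gamma list genes with a window (66.7%) and in 10 of 36 of the type I and III list (27.8%), and a GAS core in 9 of 18 (50%) and 5 of 36 (13.9%). These matches are descriptions of letters and not measured binding sites.

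The score ran from 4.48 in het 1 to 1.43 in hom 3. In the interferon-high tumours it was 4.48 in het 1, 3.34 in het 5, 3.27 in hom 5, 3.15 in hom 1 and 2.98 in het 2. In the interferon-low tumours it was 1.91 in het 6, 1.81 in hom 2, 1.79 in hom 6, 1.76 in wt 4 and 1.43 in hom 3. Het 1 stood apart above all others, while the borders of the sides were narrow. The tumour just below the high side, wt 3, had 2.88, and the tumour just above the low side, wt 5, had 1.95. The tumours outside the ranking had 2.74 (wt 2), 2.43 (het 4) and 2.24 (wt 1). Because these genes chose the sides, their levels are given without a test. Isg15 was at 11.8 to 44.5 RPKM in interferon-high and 2.35 to 6.72 RPKM in interferon-low tumours. Ifit1 was at 8.41 to 26.8 against 2.20 to 3.52 RPKM, and Rsad2 at 2.06 to 6.24 against 0.193 to 0.765 RPKM. Reads of Ifit3 may be shared with its near-identical copy Ifit3b.

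**Figure D1:**
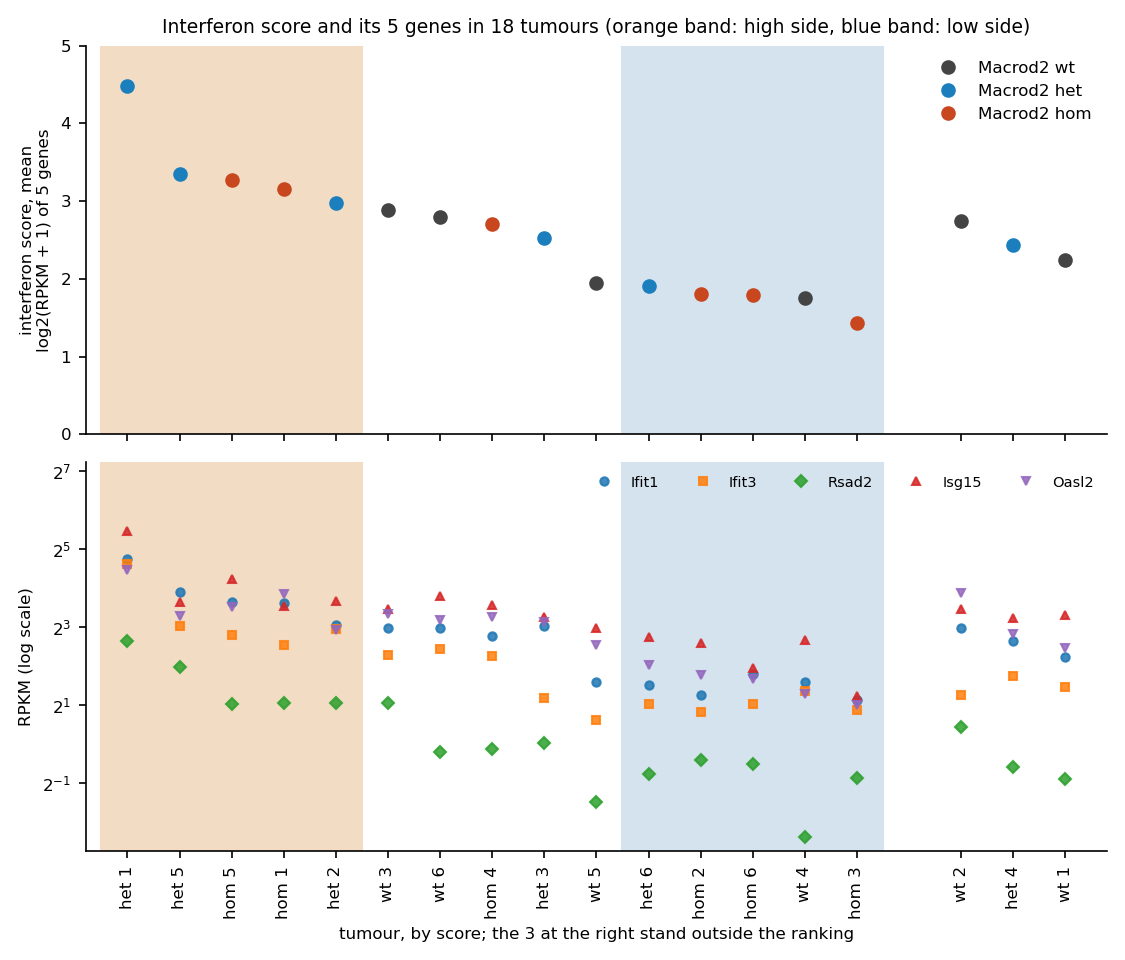
Interferon score (upper panel, mean log2(RPKM + 1) of 5 genes) and the RPKM of its genes (lower panel, log scale) in each of the 18 tumours, ordered by score, with the 3 tumours outside the ranking at the right. Each point is 1 tumour or 1 gene in 1 tumour, and het 1, at a score of 4.48, lies above the other 4 interferon-high tumours (2.98 to 3.34).

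Genotype was not used in the ranking. The interferon-high side held 0 wt, 3 het and 2 hom tumours and the interferon-low side 1 wt, 1 het and 3 hom tumours, and Fisher's exact test of this mix gave p = 0.524. Of the 4 ranked wt tumours 3 lay in the middle, with 1 het and 1 hom tumour. The mean score was 3.05 ± 0.962 (SD, n = 5) in het, 2.35 ± 0.577 (SD, n = 4) in wt and 2.36 ± 0.784 (SD, n = 6) in hom tumours. In exact two-sided permutation tests het minus wt was 0.70 (p = 0.254, adjusted p = 0.381), hom minus het -0.69 (p = 0.242, adjusted p = 0.381) and hom minus wt 0.01 (p = 0.981, adjusted p = 0.981), adjusted over the 3 pairs. No pair passed the test. With each tumour left out het minus wt ran from 0.34 (without het 1) to 0.98 (without het 6) and hom minus het from -0.97 (without het 6) to -0.33 (without het 1). Macrod2 followed the labels in the ranked tumours, with 0.581 to 0.794 RPKM in wt, 0.320 to 0.690 RPKM in het and 0 to 0.0803 RPKM in hom tumours. Its log2 fold change between the sides was -0.18 ± 1.06 (SE) with an edgeR adjusted p of 0.952.

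The libraries held 13529204 to 20857918 counts, with 17990899 to 20857918 in interferon-high and 13529204 to 19228696 in interferon-low tumours (exact permutation p = 0.0714, adjusted p = 0.107). Genes with a count numbered 16912 to 17154 against 16207 to 17075 (exact permutation p = 0.0476, adjusted p = 0.107), where 0.00794 is the smallest p that 5 against 5 can give. Whether the ranked tumours were distal could be checked only in part. Gata4, a factor of the small intestine, was at 0.083 to 14.0 RPKM in the 15 ranked tumours and at 49.0 to 52.9 RPKM in the 3 left out. Hoxa13, Hoxb13 and Hoxd13, which mark the distal end of the gut, were at or near 0 in all 15, with a highest value of 0.209 RPKM. The tumours are therefore named by their score and not as distal. Enterocyte genes were uneven within the low side, where the summed RPKM of 18 small intestinal enterocyte genes ran from 326 to 23647, against 4682 to 11062 in the high side. Colonic surface colonocyte genes were uneven there too, at a summed 206 to 1447 RPKM against 847 to 1164 RPKM. Position along the gut and the content of mature enterocytes cannot be told apart by these sums, and their part in the results was not tested.

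Across 14035 tested genes, none of which belongs to the score, edgeR's quasi-likelihood test gave 0 genes with an adjusted p under 0.05 in either direction, and the smallest adjusted p was 0.175. At an unadjusted p under 0.05 it gave 1213 genes, 461 with a higher estimate in interferon-high tumours (3.28%) and 752 with a lower one (5.36%). DESeq2 called 73 genes higher and 8 lower, of which 33 belong to the type I and III or the interferon gamma list, while limma-voom called 0 and limma on log2(RPKM + 1) called 1. The sides were set by interferon genes, so estimates for other genes of the same response describe what goes with the score. In 86 genes (0.613% of those tested) each interferon-high tumour lay above each interferon-low tumour, and in 39 (0.278%) each lay below. For a gene unrelated to the sides, exact permutation of 5 against 5 tumours gives full separation in either direction with a probability of 0.00794. The 2 shares together are close to this probability. Ranges without overlap therefore do not by themselves mark a single gene as different between the sides. Of the 86 genes 23 belong to the 2 interferon lists, 5 to another list and 58 to none, and of the 39 genes 0 belong to the interferon lists and 1 to another.

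The type I and III interferon list had a median log2 fold change of 0.91 over its 51 tested members, against -0.03 over all tested genes. Estimates were higher in interferon-high tumours for 48 of the 51 and lower for 3, where 46.1% of all genes had a higher estimate. Ranges did not overlap for 16 members (0.613% of all tested genes), all higher, and 0 members passed the adjusted threshold. The lower 3 include Ifitm3, a restriction factor of viral entry, and Isg20, an exonuclease, whose estimate of -0.02 changes sign with the processing.

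Of the factors of the type I and III pathway, Stat2 had a log2 fold change of 0.42 ± 0.17 (SE, adjusted p = 0.545 in edgeR) and Irf9 of 0.44 ± 0.16 (SE, adjusted p = 0.545), and the ranges of both overlapped. Irf7, which drives the second wave of type I interferon genes, stood at 71.9, 44.5, 47.8, 65.7 and 38.7 RPKM in het 1, het 5, hom 5, hom 1 and het 2. It stood at 20.3, 22.9, 25.5, 12.2 and 27.1 RPKM in het 6, hom 2, hom 6, wt 4 and hom 3. All 5 interferon-high tumours were above all interferon-low ones, with a log2 fold change of 1.33 ± 0.23 (SE, adjusted p = 0.225 in edgeR).

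Many effectors of the type I and III list also separated the sides. Oas3, an oligoadenylate synthetase that activates RNase L, was at 0.955 to 3.74 RPKM against 0.213 to 0.689 RPKM, a log2 fold change of 2.40 ± 0.42 (SE, adjusted p = 0.225 in edgeR). Ifi44 was at 0.951 to 3.90 against 0.176 to 0.684 RPKM (2.37 ± 0.46, SE), and in both genes het 1 was the highest tumour and the ranges did not overlap. Zbp1, a sensor of Z-form nucleic acid, was at 9.46 to 24.9 against 3.99 to 7.54 RPKM (1.56 ± 0.29, SE). Usp18, which removes Isg15 from proteins and restrains the type I receptor, was at 5.54 to 17.9 against 2.96 to 4.94 RPKM (1.35 ± 0.32, SE). Ranges also did not overlap in the ADP-ribosyltransferase genes Parp14 (log2 fold change 1.19), Parp9 (0.68) and Parp12 (0.95), nor in Herc6 (1.13), the mouse ligase for Isg15. Mx1, a dynamin-like antiviral GTPase, was low throughout at 0.518 to 2.86 against 0.206 to 0.910 RPKM, and its ranges overlapped. Counts of Oas1a and Oas1g, which are near-identical copies, are uncertain, as are those within the guanylate-binding protein and class I families.

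Estimates of the interferon gamma list were larger than those of the type I and III list and less even among tumours. Its median log2 fold change was 2.14 over 30 tested members, all 30 with a higher estimate, against -0.03 over all genes, and 7 had ranges that did not overlap (0.613% of all tested genes). Those 7 were Irgm2, Irf1, Ifi47, Gbp6, Gm12250, Cd274 and Gbp10. Irgm2 (chr11:58199618-58222782, + strand, mm10), an immunity-related GTPase, was at 22 RPKM in het 1, 18.9 in het 5, 27.1 in hom 5, 16.5 in hom 1 and 27.1 in het 2. It was at 8.28 in het 6, 11 in hom 2, 13.4 in hom 6, 9.18 in wt 4 and 7.43 in hom 3, with a log2 fold change of 1.19 ± 0.20 (SE, adjusted p = 0.224 in edgeR). Irf1, an early factor of the gamma response, had a small estimate and a narrow low side, at 35.9 to 46.1 against 29.7 to 30.3 RPKM (0.48 ± 0.09, SE, adjusted p = 0.225 in edgeR). Cd274, which encodes the checkpoint ligand PD-L1, was at 1.01 to 4.79 against 0.282 to 0.842 RPKM (2.19 ± 0.47, SE).

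Some large gamma estimates rested on 3 of the 5 interferon-high tumours, while Gm12250 (log2 fold change 3.11), Gbp10 (2.74) and Gbp6 (2.42) had ranges that did not overlap. Cxcl9, a chemokine that draws activated T cells, was at 13.3 RPKM in het 1, 21.5 in hom 5 and 25.6 in het 2, but at 0.159 in het 5 and 0.905 in hom 1. In interferon-low tumours it was at 0.177 in het 6, 0.780 in hom 2, 2.30 in hom 6, 0.251 in wt 4 and 1.67 in hom 3. Het 5 and hom 1 thus lay within or below the low range, and the log2 fold change of 3.56 had an SE of 1.14 (edgeR adjusted p = 0.545). Gbp2, a guanylate-binding protein gene, had a like pattern, with 30.1, 57.5 and 45.2 RPKM in het 1, hom 5 and het 2 and 1.65 and 3.52 RPKM in het 5 and hom 1, against 1.07 to 7.17 RPKM in the low side. Tgtp1, a GTPase gene, was at 14.8, 17.5 and 32.7 against 0.768 and 1 RPKM, with a low side of 0.325 to 3.42 RPKM. Nlrc5, the transactivator of class I genes, was at 1.57, 1.07 and 1.44 RPKM against 0.133 and 0.189 RPKM.

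The score of a whole list, the mean log2(RPKM + 1) of its tested members relative to the 15 ranked tumours, was likewise uneven. For the gamma list it was 0.97 in het 1, 1.24 in hom 5 and 1.26 in het 2, and -0.44 in het 5 and -0.27 in hom 1, with -0.75 to -0.16 in the low side. The type I and III score did not divide the high side this way, at 0.67 in het 1, 0.12 in het 5, 0.27 in hom 5, 0.24 in hom 1 and 0.15 in het 2. It was -0.42 to -0.21 in the low side, so the sides did not overlap. Of the middle tumours, hom 4 had a gamma score of 0.70 and 8.66 RPKM of Cxcl9, and the other 4 had gamma scores of -0.50 to 0.07. These tumours were singled out after their values were seen, and no test was made of them.

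**Figure D2:**
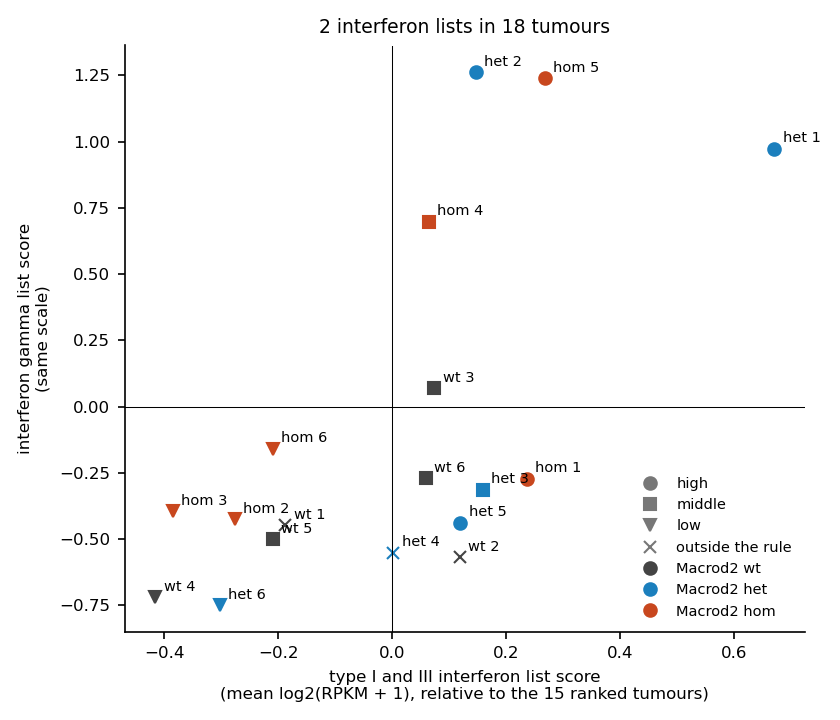
Scores of the type I and III list (x axis) and the interferon gamma list (y axis) in 18 tumours, each the mean log2(RPKM + 1) of the list relative to the 15 ranked tumours, with 1 point per tumour, shape for the side and colour for the genotype. Het 1, hom 5 and het 2 lie at gamma scores of 0.97 to 1.26, while het 5 (-0.44) and hom 1 (-0.27) lie level with interferon-low tumours.

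All 7 tested MHC class II genes, which present extracellular peptides to helper T cells, had a higher estimate, with a median log2 fold change of 1.47 and 0 ranges without overlap. Cd74, the invariant chain of class II, was at 238 RPKM in het 1, 36.0 in het 5, 106 in hom 5, 37.8 in hom 1 and 73.6 in het 2. In the low side it was at 25 in het 6, 33.5 in hom 2, 42.6 in hom 6, 21.5 in wt 4 and 26.5 in hom 3. Het 5 and hom 1 lay below hom 6, and the log2 fold change was 1.73 ± 0.48 (SE, adjusted p = 0.545 in edgeR). Ciita, the master regulator of class II, was at 0.172 to 0.837 against 0.0623 to 0.332 RPKM (1.99 ± 0.59, SE).

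In the MHC class I list 18 of 23 tested genes had a higher estimate and 5 a lower one (median 0.36). The immunoproteasome genes Psmb8 (1.26) and Psmb9 (1.25) and the peptide transporter gene Tap1 (1.401) had the largest estimates, with ranges that overlapped. B2m, the light chain, was at 404 to 750 against 202 to 438 RPKM (0.84 ± 0.22, SE, adjusted p = 0.529 in edgeR). The heavy chains H2-K1 (0.25) and H2-D1 (0.08) had small estimates, and the estimate of H2-D1 changes sign without het 1 or hom 6. Ranges did not overlap in Tapbp and Tapbpl, which load peptides (0.50 and 0.43), nor, in the other direction, in H2-Q10, a class Ib gene, at 1.57 to 2.81 against 3.49 to 4.07 RPKM (-0.74 ± 0.20, SE).

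**Figure D3:**
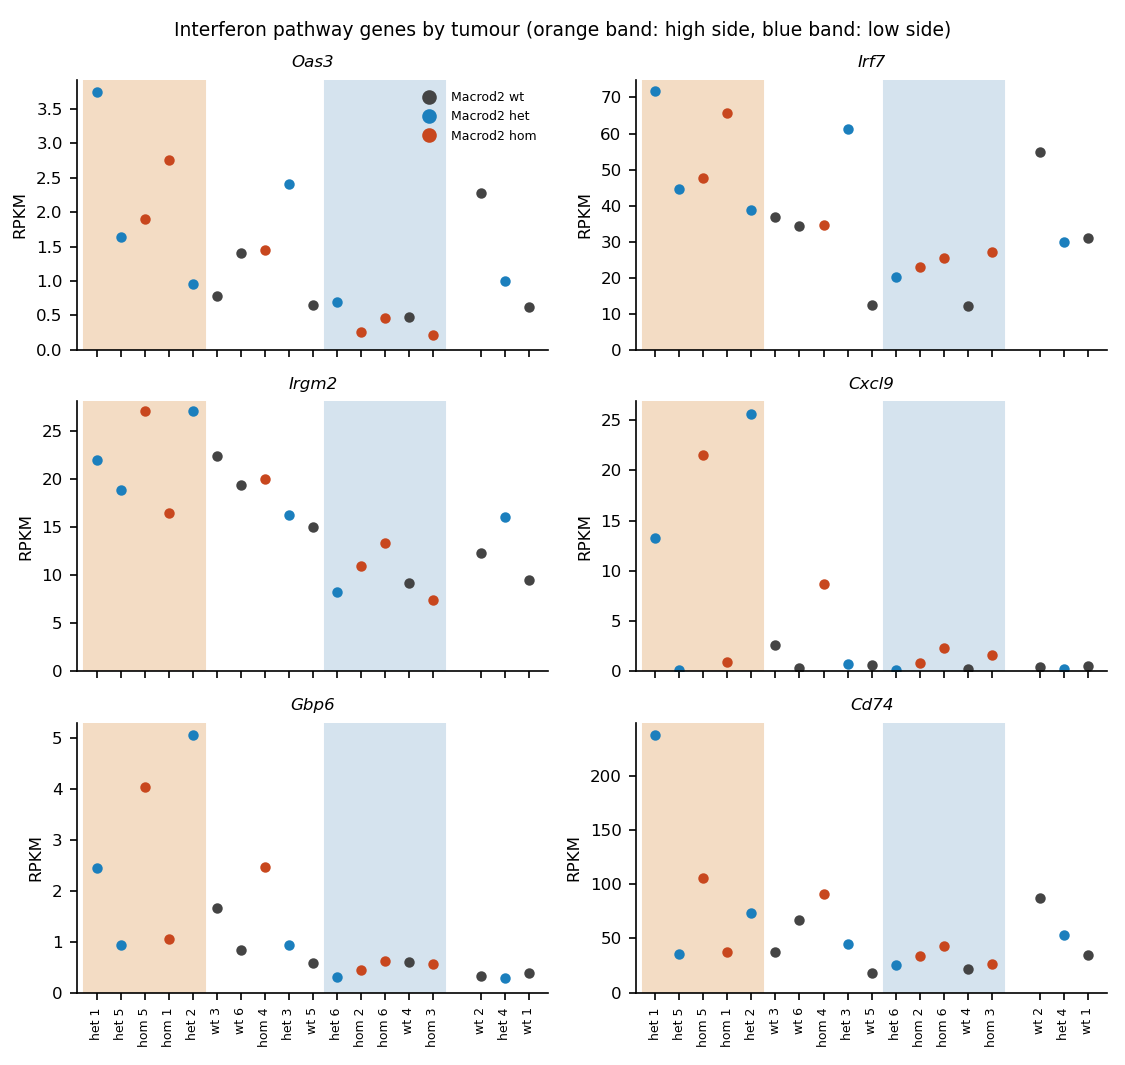
RPKM of Oas3, Irf7, Irgm2, Cxcl9, Gbp6 and Cd74 in each of the 18 tumours, 1 point per tumour coloured by Macrod2 genotype, with the interferon-high tumours in the orange and the interferon-low tumours in the blue band. The bands do not overlap in Oas3, Irf7, Irgm2 and Gbp6, while Cxcl9 is at 13.3 RPKM or more in het 1, hom 5 and het 2 and under 1 RPKM in het 5 and hom 1.

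The interferons themselves were close to undetected. None of the 21 ligand genes had enough counts to be tested, Ifnb1 had 0 counts in all 18 tumours and so did Ifnl3, while Ifnl2 had 1. A count of 0 allows up to 3 counts in a library, which for Ifnb1 is at most 0.357 RPKM (counting error only). Ifng, the gene of interferon gamma, had 20 counts in 8 of 18 tumours, 9 in the high side, 5 in the middle and 6 in the low side. Ifne and Ifnz had 29 and 49 counts. At this depth no difference in ligand RNA was detectable.

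Receptors and their kinases had estimates near 0, with a median log2 fold change of 0.04 over 9 genes and 0 ranges without overlap. The type I receptor genes were at 0.04 ± 0.10 (Ifnar1, SE) and -0.18 ± 0.16 (Ifnar2, SE), the type III receptor gene Ifnlr1 at -0.20 ± 0.15 (SE), and the gamma receptor genes at 0.21 ± 0.19 (Ifngr1, SE) and 0.14 ± 0.16 (Ifngr2, SE). Among 17 genes of nucleic acid sensing the median was 0.03. The DNA sensor gene Mb21d1 (cGAS, -0.19) and Tmem173 (STING, -0.13) had estimates that change sign with the processing. Adar, which edits double-stranded RNA and has an interferon-inducible form, was the 1 sensing gene whose ranges did not overlap, at 9.91 to 11.8 against 8.98 to 9.66 RPKM (0.25 ± 0.09, SE). The 10 brakes on signalling had a median of -0.02, with Socs3, a feedback inhibitor of JAK kinases, at -0.03, and Socs1, counted in the gamma list, at 0.51 ± 0.27 (SE, adjusted p = 0.556 in edgeR).

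Markers of immune cells had ranges that mostly overlapped between the sides, and their part in the interferon results was not tested. Of 28 T and NK cell markers 14 were tested, 10 with a higher estimate (median 0.30), and the summed RPKM of all 28 was 21.4 to 46.8 against 11.3 to 42.9. Cd8a, of cytotoxic T cells, was at 0.263 to 0.705 against 0.0182 to 0.978 RPKM. Of 20 tested macrophage and monocyte markers 16 had a higher estimate (median 0.41), and the summed RPKM of all 21 listed was 118 to 150 against 95.8 to 151. Ccr2, a chemokine receptor of monocytes, had ranges that did not overlap, at 0.240 to 0.444 against 0.0823 to 0.207 RPKM, as did Itgax, of dendritic cells and macrophages, at 0.713 to 1.09 against 0.417 to 0.697 RPKM. Of 6 tested conventional dendritic cell markers, Itgax included, 3 had a higher and 3 a lower estimate (median 0.05). Neutrophil markers had a higher estimate in 11 of 12 tested genes (median 0.34) and B and plasma cell markers in 3 of 5 (median 0.42). Plasmacytoid dendritic cell markers had a higher estimate in 2 of 6 (median -0.04), and these 3 lists held 0 ranges without overlap. Siglech, which defines plasmacytoid dendritic cells, the classical source of type I interferon, was at 0 to 0.118 against 0 to 0.0493 RPKM. Mast cell and eosinophil markers had lower estimates in 9 of 10 genes (median -1.12), with Mcpt2 at -1.30 ± 0.75 (SE, adjusted p = 0.564 in edgeR).

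**Figure D4:**
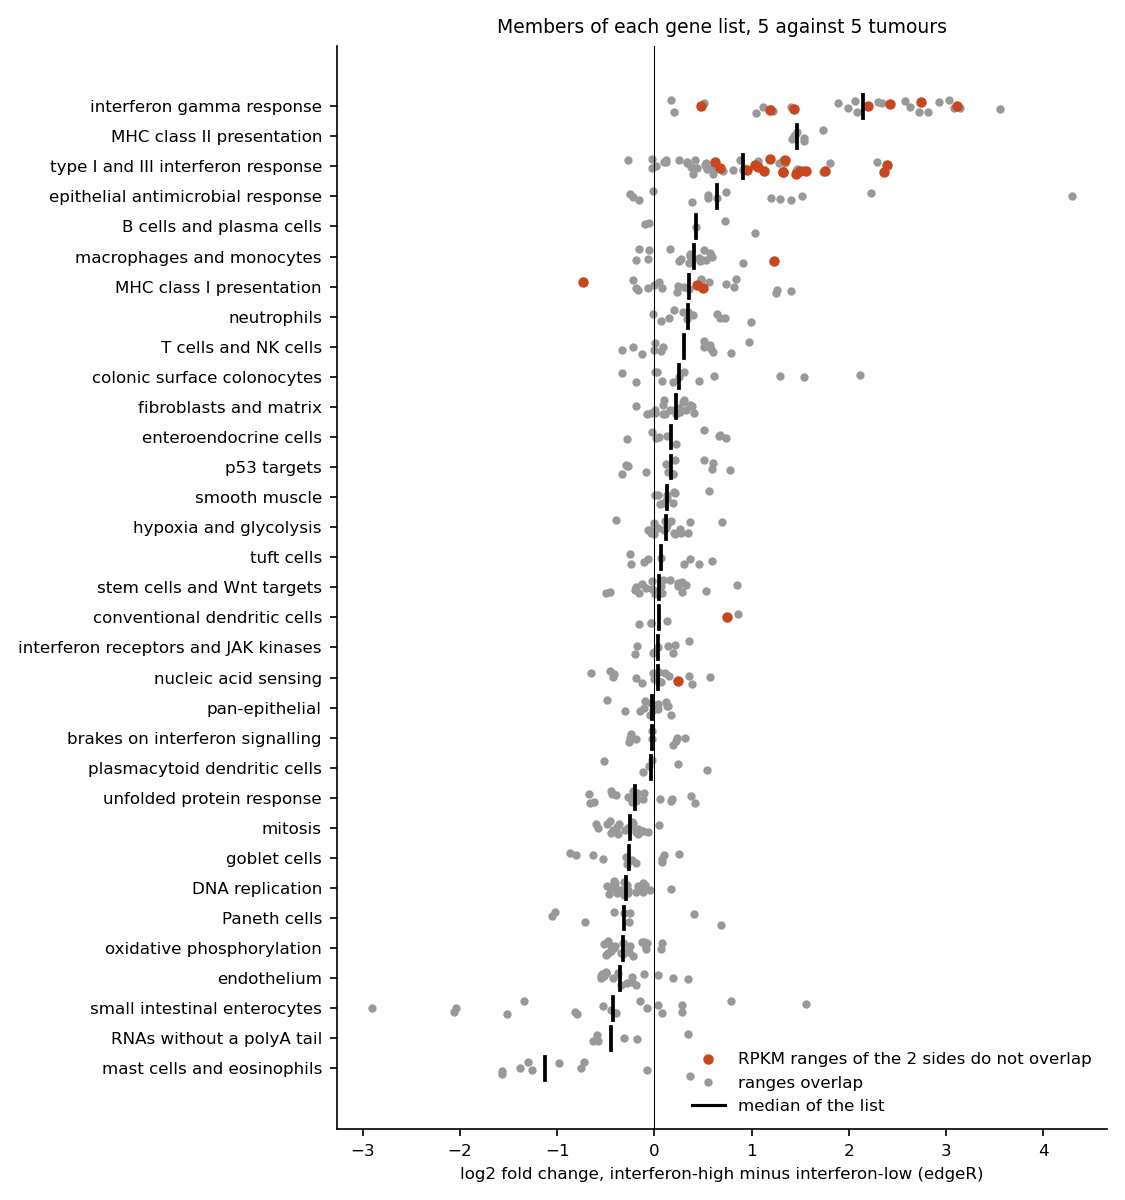
Log2 fold change (x axis, edgeR, interferon-high minus interferon-low) of each tested member of each gene list, 1 point per gene, with the median of the list as a bar and members whose RPKM ranges did not overlap in red. The 2 interferon lists have medians of 2.14 and 0.91 and MHC class II 1.47, and receptors and sensing genes centre near 0.

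Outside the interferon lists, the gene of smallest p was Egfl6 (chrX:166523007-166585720, - strand, mm10), which encodes a secreted protein with EGF-like repeats. It was at 2.26 RPKM in het 1, 2.28 in het 5, 2.23 in hom 5, 2.02 in hom 1 and 2.88 in het 2, and at 0.338 in het 6, 0.769 in hom 2, 0.473 in hom 6, 0.811 in wt 4 and 0.722 in hom 3. The high side was narrow and each of its tumours lay above each interferon-low tumour, with a log2 fold change of 1.92 ± 0.27 (SE, adjusted p = 0.175 in edgeR). C2 (chr17:34862604-34898265, - strand, mm10), complement component 2, was at 4.28 to 7.87 against 1.52 to 2.62 RPKM (1.49 ± 0.22, SE, adjusted p = 0.175). A2m (chr6:121635376-121679227, + strand, mm10), the protease inhibitor alpha-2-macroglobulin, was at 3.39 to 7.65 against 0.458 to 1.91 RPKM (2.096 ± 0.37, SE, adjusted p = 0.225).

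Antimicrobial genes of the epithelium had a median log2 fold change of 0.65, with a higher estimate in 11 of 15 tested genes and 0 ranges without overlap. Reg3b, a lectin that acts on bacteria, was at 2451, 2655, 8643, 1253 and 4692 RPKM in het 1, het 5, hom 5, hom 1 and het 2. It was at 677, 1561, 483, 703 and 840 RPKM in het 6, hom 2, hom 6, wt 4 and hom 3. The sides overlapped through hom 1 and hom 2 alone, and the log2 fold change was 2.23 ± 0.49 (SE, adjusted p = 0.328 in edgeR). Saa1, serum amyloid A, was at 7.81, 36.6, 56.7, 3.56 and 6.33 RPKM against 0.658, 1.04, 0.168, 3.97 and 0.0974 RPKM in the same order, overlapping through hom 1 and wt 4 (4.30 ± 1.03, SE, adjusted p = 0.451 in edgeR). Duox2, an epithelial oxidase, was at 20.7 to 93.2 against 6.92 to 29.2 RPKM (1.52 ± 0.45, SE).

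Of the genes with a lower estimate in interferon-high tumours, Hoxa5 had the smallest p under the naming rule. This positional factor was at 3.63, 1.62, 3.15, 3.55 and 3.06 RPKM in het 1, het 5, hom 5, hom 1 and het 2, and at 9.51, 8.11, 9.76, 2.92 and 14.2 RPKM in het 6, hom 2, hom 6, wt 4 and hom 3. Of the low side only wt 4 lay within the high range, and the log2 fold change was -1.55 ± 0.36 (SE, adjusted p = 0.408 in edgeR). Lgals2, galectin 2, was at 745 to 897 against 980 to 2213 RPKM (-0.84 ± 0.21, SE) and Agr3, of the protein disulfide isomerase family, at 3.83 to 9.61 against 9.85 to 16.4 RPKM (-1.04 ± 0.26, SE), both without overlap and with an edgeR adjusted p of 0.486. Ifi30, the lysosomal thiol reductase named for its induction by interferon gamma, was on the lower side without overlap, at 59.5 to 66.4 against 71.5 to 99.3 RPKM (-0.37 ± 0.10, SE, adjusted p = 0.543 in edgeR).

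**Figure D5:**
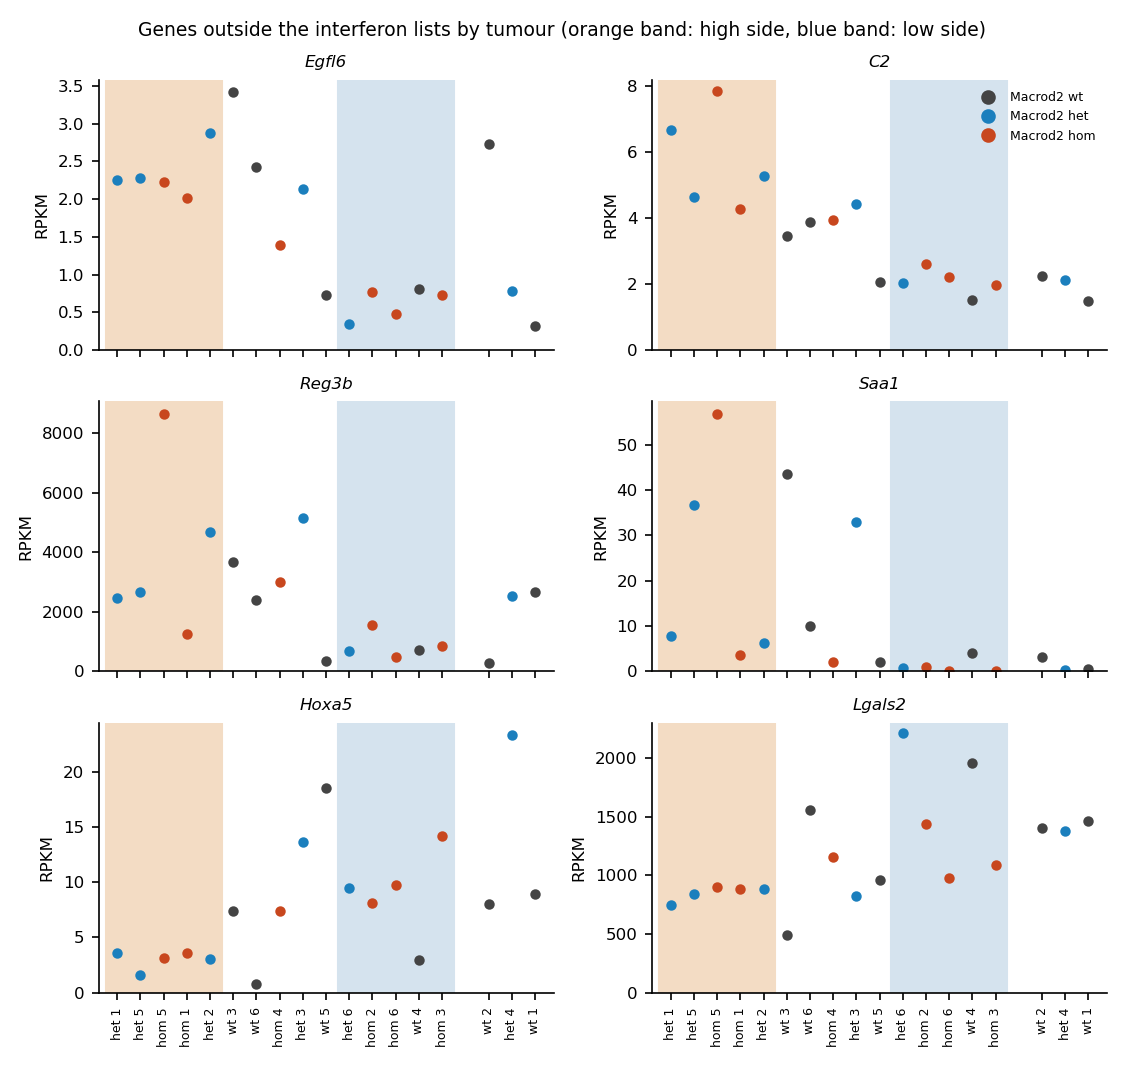
RPKM of 6 genes outside the interferon lists in each of the 18 tumours, 1 point per tumour coloured by Macrod2 genotype, with the interferon-high tumours in the orange and the interferon-low tumours in the blue band. The bands do not overlap in Egfl6, C2 and Lgals2, overlap through single tumours in Reg3b, Saa1 and Hoxa5, and Egfl6 is also high in wt 3 (3.43 RPKM) of the middle tumours.

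Among lists of growth and metabolism genes, replication, mitosis and oxidative phosphorylation genes mostly had lower estimates, where 53.9% of all genes had a lower one, and hypoxia and glycolysis genes had a higher estimate in 13 of 19 (median 0.12). Each of these lists held 0 ranges without overlap. DNA replication genes had a lower estimate in 24 of 25 (median -0.30), mitosis genes in 23 of 24 (median -0.25, but 0.01 with 4 tumours per side) and oxidative phosphorylation genes in 23 of 25 (median -0.32). Within the sides they varied widely, and the replication score was -0.63 in het 1 and 0.14 in het 5, against -0.70 in hom 3 and 0.61 in wt 4. Stem cell and Wnt target genes had a median of 0.05 and pan-epithelial genes -0.02. Goblet genes had a lower estimate in 8 of 12 and Paneth genes in 7 of 9, with Lyz1, Paneth cell lysozyme, at 432 to 846 against 721 to 2095 RPKM (-1.03 ± 0.30, SE). Endothelial genes had a lower estimate in 15 of 18 (median -0.36), but without hom 6, whose endothelial score was 0.78, the median was 0.20.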

How the data were processed

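RNA of 18 intestinal tumours was sequenced from TruSeq Stranded Total RNA libraries, per the labels' protocols, although polyA RNA is the molecule entered. The authors deposited whole-number read counts for 24062 genes and, as a second table, RPKM values. Trimmomatic, TopHat and featureCounts, from version 1.4.5-p1 of Subread, are named in the submitters' processing notes, as is the build mm10, and the strand setting is not given in the sources used here. The deposited RPKM equalled counts per gene length and library total times a factor per library, within a relative deviation of 5.9e-08. No library repeated another (smallest chi-square per degree of freedom between libraries 17.7).

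The members, the 34 gene lists and the alternatives were chosen with earlier results of these data known. The rule ranked 15 tumours by deposited RPKM, and the 5 highest were compared with the 5 lowest on the counts by edgeR 4.0.16 in R 4.3.3 (filterByExpr, TMM scaling, robust quasi-likelihood fit, Benjamini-Hochberg over 14035 genes, threshold 0.05). The 5 score genes stayed in library sizes and out of the calls. No list was tested. Genes were named as the 5 of smallest p per direction among those of mean log2 CPM of at least 0 with an established name, 2 per list and a set list of pathway genes; 1 gene of this rule is not reported here. All other named genes were chosen after their values were seen, and this holds for most effectors and presentation genes, Ifi30, Duox2 and the position markers. Gene positions are from GENCODE and promoters from RefSeq, with 10469 of the 14035 tested genes matched by symbol.

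Checked on simulated counts of 14040 genes, with 200 changed in interferon-high against interferon-low tumours, the script recovered 7.58% of genes changed 1.5-fold, 46.2% of those changed 2-fold and 89.2% of those changed 4-fold, with 1 false call. Each gene was drawn independently, without variation shared between the genes of a tumour. The shares therefore do not give the power in the measured counts, where 0 genes passed. Alternatives were other scaling, DESeq2 1.42.0, limma 3.58.1 on counts (voom) and on log2(RPKM + 1) and log2(RPKM + 0.1), filters, other scores, 4 or 6 tumours per side, all 15 tumours, genotype as a covariate and leaving out each tumour. In 12 pairs of tumours of equal mouse number and different genotype, deviations from the genotype means correlated at -0.425 to 0.544 and passed 0.1 in 5, so the numbers were not taken to pair tumours.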

Additional observations from a re-analysis of the deposited data

Results flagged for a closer look

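The sets examined were 5 tumours of 1 side (a score, a gene or a list) or the 4 to 6 ranked tumours of a genotype (the interferon score). Among 81 such sets, 9 held a tumour far from the others by Dixon's ratio, and chance gives about 1 in 20. In the interferon-high side het 1 was far above the others in the interferon score, at 4.48 against 2.98 to 3.34, in Ifit3, at 4.69 log2(RPKM + 1) against 2.77 to 3.21, and in the type I and III list score, at 0.67 against 0.12 to 0.27. These are not independent, since the first contains the second. Het 5 had the highest nucleic acid sensing score of that side (0.0374 against -0.0492 to -0.0269) and the lowest hypoxia and glycolysis score (-0.29 against 0.13 to 0.25). Hom 1 had the highest pan-epithelial score (0.13 against -0.04 to 0.01) and the highest colonocyte score (0.50 against 0.36 to 0.38). In the interferon-low side hom 6 had the highest endothelial score (0.78 against -0.26 to 0.04) and the lowest score of RNAs without a polyA tail (-1.13 against -0.01 to 0.13).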

How the results depend on the processing

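The medians of the type I and III list (0.80 to 0.99 with each tumour left out) and the interferon gamma list (1.90 to 2.42) were above 0 in all 25 alternatives, with 0.54 and 1.04 on log2(RPKM + 1), and 1.402 for the first list when it set the score itself. Against 0 genes called by edgeR, DESeq2 called 73 higher and 8 lower, the score as a continuous term over 15 tumours 22 higher, and sides set by the type I and III list 28 higher and 1 lower (4284 at an unadjusted p under 0.05). There was 1 higher call with 15 tumours in 3 groups, and 1, Egfl6, with 6 tumours per side (2282 unadjusted) and on log2(RPKM + 1). With each tumour left out, 0 to 2 genes were called higher and 609 to 3916 had an unadjusted p under 0.05, with 2 and 3916 without hom 6 and 1 call, Ltf, without wt 4. The cause was not tested. The adjusted p of Egfl6 ran from 1.84e-09 to 0.496.

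Some single genes changed sign. Macrod2 was at 1.42 (limma-voom), 0.32 (log2(RPKM + 0.1)), 0.0029 (continuous score), 0.18 (genotype as a covariate) and -0.51 to 0.47 with a tumour left out. Mb21d1 was at 0.0776 (limma-voom), 0.0138 (log2(RPKM + 0.1)), 0.0047 (genotype), 0.23 (4 per side) and -0.48 to 0.0788. Tmem173 was at 0.0217 (genotype) and -0.24 to 0.0377, H2-D1 at -0.0423 to 0.17, and Cd8a at -0.25 (4 per side) and -0.22 to 0.53. Isg20 was at 0.0566 (limma-voom), 0.0138 and 0.0225 (log2 of RPKM + 1 and + 0.1), 0.0256 (continuous), 0.0513 (genotype) and -0.16 to 0.13. Ifnar1 was at -0.0074 with a score on log2(RPKM + 0.1), Mcpt2 at 0.24 with the list score, and Rn45s, the ribosomal RNA precursor (-0.60), at 3.54 (continuous) and 3.93 (6 per side), where wt 3 with 27.0% of its counts in Rn45s enters.

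Hom minus wt in the interferon score was -0.0359 over 17 large intestinal tumours, -0.0484 with the mouse number as a replicate block (exact two-sided sign-flip test, adjusted p = 1, n = 4), added after the data were seen, and -0.18 to 0.20 with a tumour left out. With the same block het minus wt was 0.05 (adjusted p = 1 by the exact test, n = 3), against 0.70 over all ranked het and wt tumours. The block holds only mouse numbers that both genotypes share, so het 1, het 2 and wt 4 were not in this difference. Hom minus het was -0.76, with hom below het in all 5 mouse numbers (exact p = 0.0625, the smallest that 5 pairs can give, adjusted p = 0.188). The mouse numbers were not taken to pair tumours. Medians of the small intestinal enterocyte (0.64 on log2(RPKM + 1)), mast cell (0.23 with the list score) and T and NK cell lists (-0.06 with 4 per side) also changed sign. The planned block by mouse number was also fitted to the 2 sides. They share 1 mouse number, so the difference in that fit rests on this number alone, and its values are not reported.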

Other observations

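Slc40a1, which encodes the iron exporter ferroportin, was at 13.8 to 39.4 RPKM in interferon-high and 5.73 to 14.7 RPKM in interferon-low tumours, overlapping through het 2 and hom 3 (log2 fold change 1.64 ± 0.32, SE, adjusted p = 0.225 in edgeR). Ltf, lactoferrin, an iron-binding antimicrobial protein, was at 50.6 to 73.1 against 24.96 to 59.8 RPKM, where wt 4 was the 1 low-side tumour inside the high range (0.90 ± 0.23, SE, adjusted p = 0.486 in edgeR). Colonocyte markers differed by gene, with Cyp2c55 at 10.2 to 41.0 against 0.257 to 13.6 RPKM and Ceacam20 at 20.3 to 56.7 against 4.06 to 24.5 RPKM, while the list median was 0.25 over 13 tested genes. Fabp1, a fatty acid binding protein of enterocytes, was at 11.3 to 109 RPKM in the high side and ran from 3.86 RPKM in wt 4 to 739 RPKM in hom 3 in the low side. Slc40a1 and Ltf were chosen after their values were seen, and the part of these 5 genes in the interferon comparison was not tested.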
